A study of Mus musculus with 6 samples.

Results

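The 10 genes described here encode the main heat shock chaperones of the mouse cytosol and mitochondrion, with the transcription factor that drives several of them. They were listed by symbol, by a rule that uses no threshold on measured values, although earlier results of these data were known when they were chosen: *Hspa8*, *Hspa1a*, *Hspa1b*, *Hsp90aa1*, *Hsp90ab1*, *Hsph1*, *Dnajb1*, *Hspd1*, *Hspe1* and *Hsf1*. Of these 10, 9 had a row among the 13426 genes of the deposited table, and *Hspa1a* had none. They were measured by RNA sequencing in a dividing stage of B cell development in bone marrow, the early large pre-B cell (written early LPre-B). The Upf1-cKO mice were *Upf1* Flox/Flox, *Mb1* Cre/+, so that Cre, made from the B lineage gene *Mb1* (*Cd79a*), removes internal exons of *Upf1*, which encodes a helicase of nonsense-mediated mRNA decay (NMD). The control mice (Ctrl) were *Upf1* Flox/Flox, *Mb1* +/+, and so carried the same floxed alleles with an intact pair of *Mb1* alleles and no Cre, which means that Cre and the loss of one *Mb1* copy cannot be told apart from the loss of *Upf1* in this comparison. There were 3 libraries per group from age-matched mice of both sexes, described by the study as independent biological replicates. The sort gate included Lineage-, B220+, sIgM-, CD43+, FSC hi and CD2-.

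Chaperones bind unfolded stretches of other proteins and release them for folding in cycles of ATP use. In the cytosol the constitutive HSP70 (*Hspa8*) works with a J-domain partner such as DNAJB1, which delivers clients and triggers ATP hydrolysis, and with a nucleotide exchange factor such as HSPH1 (HSP110), which resets the cycle. Clients such as kinases and steroid receptors then pass to HSP90, which has an inducible form (*Hsp90aa1*) and a constitutive form (*Hsp90ab1*). In mitochondria, imported proteins fold inside the HSP60 barrel (*Hspd1*) under its lid HSP10 (*Hspe1*). HSF1 is held inactive by chaperones and, when unfolded proteins occupy them, binds arrays of the short unit nGAAn in the promoters of many of these genes.

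The HSF1 recognition letters are shown first because several of the chaperone genes carry them near their starts. The 250 bases upstream of annotated starts (RefSeq, build GRCm38.p6) were searched for inverted units spelled GAANNTTC or TTCNNGAA (2 units), and for GAANNTTCNNGAA or TTCNNGAANNTTC (3 units, which contain the 2-unit form), on both strands. Among all 32851 promoter windows, 12.8% held the 2-unit form and 0.466% the 3-unit form. The windows below are 30 bases each, with the run of units in capitals. The first lies upstream of *Hspe1* and inside the annotated 5′ end of *Hspd1*, which are transcribed head to head from chromosome 1 and overlap, and is shown on the *Hspe1* strand:
Hspe1, chr1:55088053-55088082, plus strand: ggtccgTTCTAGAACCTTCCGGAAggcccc
Hsph1, chr5:149636351-149636380, minus strand: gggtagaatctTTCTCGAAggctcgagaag
Hspa1b, chr17:34959324-34959353, minus strand: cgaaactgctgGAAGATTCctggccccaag
Hspa1a, chr17:34972242-34972271, minus strand: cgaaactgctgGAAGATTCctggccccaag
The run at *Hspe1* and *Hspd1* held 4 units, 72 bases before the *Hspe1* start and 127 bases before one of the annotated *Hspd1* starts, and the window of the other *Hspd1* start held none. The run at *Hsph1* held 2 units, 26 or 47 bases before its annotated starts. *Hspa1a* and *Hspa1b* had the same 30 letters, each 97 bases before the start. No match was found in the windows of *Dnajb1*. Windows of *Hspa8*, *Hsp90aa1*, *Hsp90ab1* and *Hsf1* were not analysed here. These are matches of letters, and binding was not measured.

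The libraries held 9732498 to 11006834 recovered reads, and levels are given as deposited, as normalised reads (a count plus 0.5 reads, divided by a scaling factor of each library). *Upf1*, the targeted gene, was measured over the whole gene, of which the floxed exons are only a part, so its count does not check the deletion. Its level was 260.0, 203.3 and 258.6 normalised reads in the Ctrl libraries and 307.8, 283.0 and 299.7 in the libraries labelled Upf1-cKO, higher by 0.31 in log2 units (adjusted p = 0.00696, limma). The call was lost without the intensity trend (adjusted p = 0.0707, limma) and under median centring, and the change was 0.193 without Ctrl replicate 2. Upf1-cKO below means the libraries labelled so. *Cd79a*, whose locus carries Cre, was 213 to 234 in Ctrl and 71.6 to 75.2 in the libraries labelled Upf1-cKO. All 11 B lineage markers had a row, with a summed level of 2500 to 2720 in Ctrl and 2550 to 2680 in Upf1-cKO. Neutrophil markers (10 of 10 with a row) summed to 125 in Ctrl replicate 1, 19.1 and 14.8 in Ctrl replicates 2 and 3, and 332 to 466 in Upf1-cKO, so Ctrl replicate 1 stood apart from the other controls in these markers. Over the whole table the controls correlated with each other at 0.9894 to 0.9912 (log2 values). The most abundant row held 16.41% of the reads in Ctrl replicate 3, against 22.22% and 23.77% in Ctrl replicates 1 and 2. Ctrl replicate 1 was also the lowest Ctrl library for 8 of the 9 chaperone genes with a row, against 34.2% of all genes. The values of the chaperone genes and the counts of the lists are therefore given with and without that library, and the part of neutrophil RNA in them was not tested. In bulk RNA, fewer cells of a type and less RNA per cell cannot be told apart.

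Of the 9 chaperone genes, 2 were higher in Upf1-cKO (*Hsph1* and *Hsf1*) and 1 was lower (*Hsp90ab1*) at an adjusted p under 0.05 over all 13426 genes (limma on log2(value + 1)). Across all genes, 27.7% were called higher and 25.0% lower, 52.7% in all, so 3 of 9 is no more than the background. The median log2 fold change was -0.14 for the 9 genes and 0.01 for all genes. Without Ctrl replicate 1 the same *Hsph1* and *Hsf1* were called higher and 4 genes were called lower (*Hsp90aa1*, *Hsp90ab1*, *Hspd1* and *Hspe1*), against 27.1% and 25.0% of all genes. The groups did not overlap for 3 of 9 genes with all libraries, *Hsph1* and *Hsf1* above Ctrl and *Dnajb1* below it, where 30.9% of all genes lay above without overlap and 28.0% below, 58.8% in all. Without Ctrl replicate 1, *Hsp90aa1*, *Hsp90ab1*, *Hspd1* and *Hspe1* did not overlap either and lay below Ctrl. Fewer libraries make overlap rarer, and the share of all genes was not computed there.

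**Figure D1:**
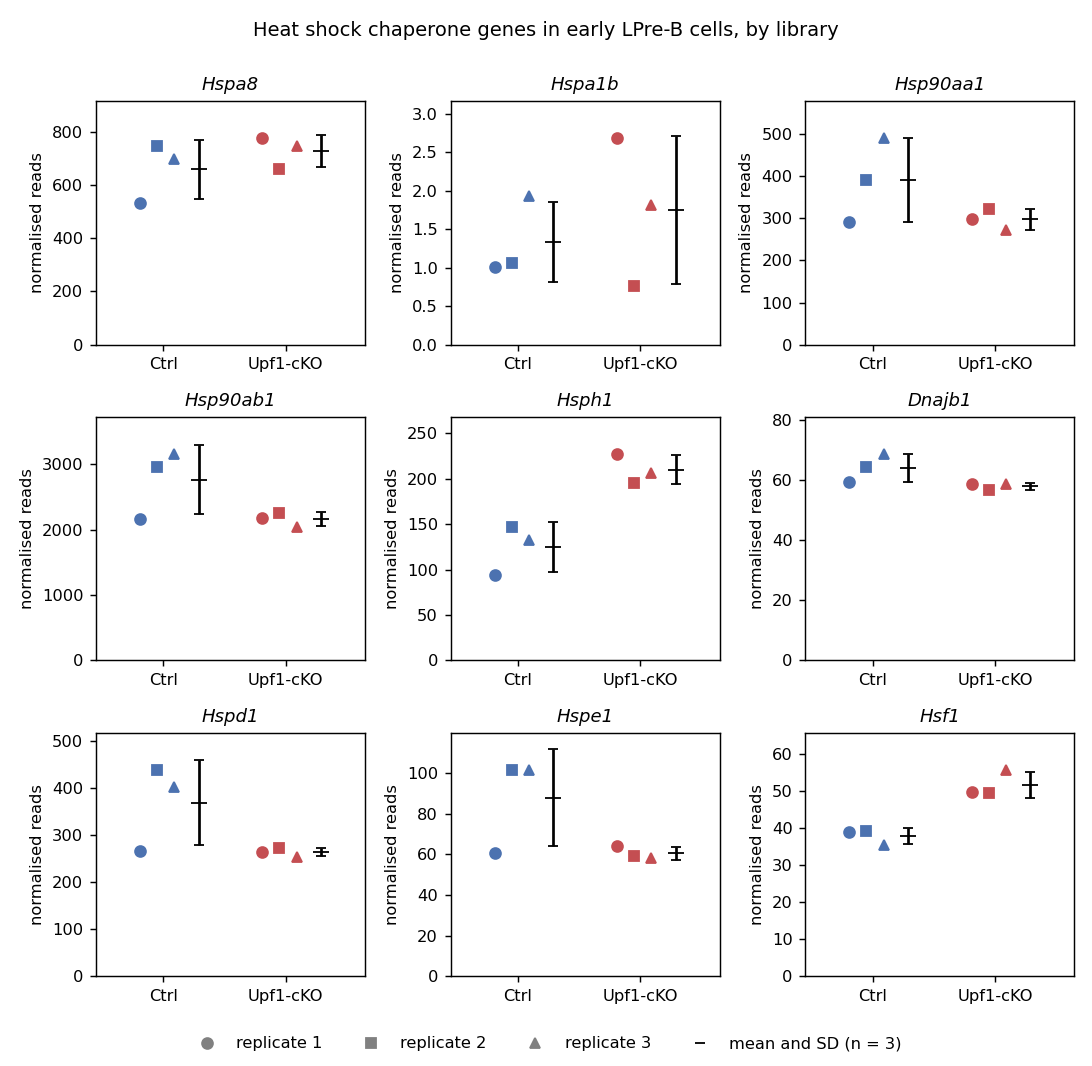
Level of each chaperone gene with a row in every library, in normalised reads on a linear axis that starts at 0, with replicate number as marker and the mean and SD of 3 libraries as a bar. *Hsph1* and *Hsf1* are higher in all 3 Upf1-cKO libraries than in any Ctrl library, while Ctrl replicate 1 lies with the Upf1-cKO libraries for *Hsp90aa1*, *Hsp90ab1*, *Hspd1* and *Hspe1*.

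Levels per length were compared within each group (normalised reads per kb of exon). The length was the union of all annotated exons of a gene, those of retained-intron transcripts included. It was 7266 bases for *Hsph1* and 3204 for *Dnajb1*, whose longest coding transcripts have 3802 and 2996. The order of genes such as *Hsph1* and *Dnajb1* therefore depends on the length used. In Ctrl cells the order of the means was *Hsp90ab1* (921 ± 176, SD, n = 3), *Hspa8* (153 ± 25.9), *Hspd1* (140 ± 34.2), *Hsp90aa1* (99.2 ± 25.4), *Hspe1* (59.6 ± 16.1), *Dnajb1* (20.02 ± 1.44), *Hsph1* (17.2 ± 3.74), *Hsf1* (5.34 ± 0.297) and *Hspa1b* (0.476 ± 0.186). In this order the constitutive HSP90 came first and *Hspa1b* last, the heat-inducible HSP70 gene that had a row. The genes differ in how much of their transcript is shared with other annotated genes. The share of 50-base windows was 4.49% in *Hsp90ab1*, 44.78% in *Hspd1*, 44.83% in *Hspe1*, 58.51% in *Hsp90aa1*, 62.31% in *Hspa1b* and 74.84% in *Hspa8*. Their levels therefore depend on how such reads were assigned. *Hspa8* and *Hspd1*, *Hspd1* and *Hsp90aa1*, and *Dnajb1* and *Hsph1* were neighbours whose Ctrl libraries overlapped, although *Hspa8* was above *Hspd1* and *Hspd1* above *Hsp90aa1* in each of the 3 libraries. In Upf1-cKO no neighbours overlapped, and *Hsph1* (26.9 to 31.3 per kb) stood above *Dnajb1* (17.7 to 18.3 per kb) in each library.

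**Figure D2:**
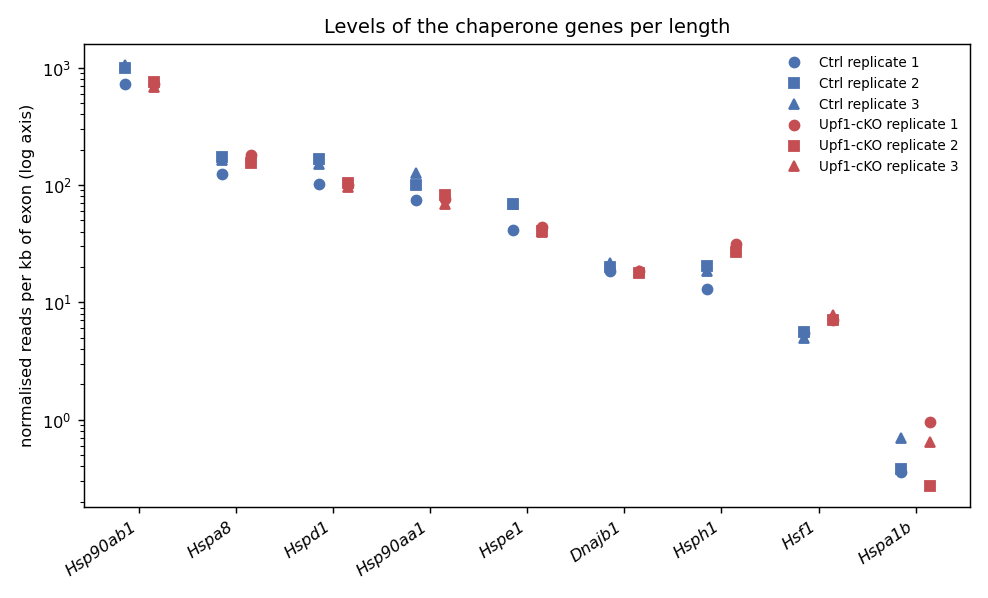
Levels of the chaperone genes per kb of exon on a log axis, one point per library, ordered by the Ctrl mean. The range from *Hsp90ab1* to *Hspa1b* is wide in both groups. With the union of annotated exons as length, the means of *Hsph1* and *Dnajb1* change order, although these genes overlap in Ctrl. Their order in Ctrl depends on the length used.

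*Hspa8*, the constitutive HSP70 on chromosome 9 (40801276 to 40805202, plus strand), was at 534.5, 747.3 and 696.9 normalised reads in Ctrl and at 776.8, 661.3 and 747.5 in Upf1-cKO. The groups overlapped, and Ctrl replicate 1 was the lowest library. Its log2 fold change was 0.15 ± 0.111 (SE, 95% interval -0.0871 to 0.396, adjusted p = 0.264, limma). Without Ctrl replicate 1 it was 0.01 (adjusted p = 0.919), and it was called higher under quantile normalization and with libraries scaled to total reads. Of the 50-base windows of its transcript, 74.84% also occurred in other annotated genes, mainly in Gm15459, which had no row, so its count depends on how such reads were assigned. It overlaps *Snord14c*, *Snord14d* and *Snord14e*, snoRNAs in its introns with rows of their own.

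*Hspa1b*, one of the pair of single-exon, heat-inducible HSP70 genes on chromosome 17 (34956429 to 34959238, minus strand), was the least abundant of the 9 genes. It had 9, 10 and 19 reads in the Ctrl libraries and 27, 8 and 21 in the Upf1-cKO libraries. The groups overlapped widely, and the lowest library of all was Upf1-cKO replicate 2. Its log2 fold change was 0.20 ± 0.262 (SE, 95% interval -0.354 to 0.747, adjusted p = 0.553, limma), and a difference was not detectable at this depth. It was 0.0993 (adjusted p = 0.804) without Ctrl replicate 1. Every one of the 62.31% of its 50-base windows that were found in other genes was found in *Hspa1a*, whose transcript is 85.5% identical to it, so reads of the pair cannot be fully told apart.

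*Hsph1*, the HSP110 exchange factor that resets HSP70, had the largest fold change of the 9 genes with all 6 libraries, though not without Ctrl replicate 1, where *Hspe1* and *Hspd1* changed more. Its level on chromosome 5 (149616843 to 149636498, minus strand) was 94.28, 146.8 and 132.8 normalised reads in Ctrl and 227.1, 195.7 and 206.0 in Upf1-cKO. Every Upf1-cKO library was above every Ctrl library. The means were 124.6 ± 27.18 and 209.6 ± 16.02 (SD, n = 3), a ratio of 1.68 and a change of 0.77 ± 0.145 in log2 units (SE, 95% interval 0.441 to 1.09, adjusted p = 0.00144, limma). Without Ctrl replicate 1 the log2 fold change was 0.58 (adjusted p = 6.58e-06), and over all 20 alternatives it ran from 0.58 to 0.97 with adjusted p from 7.99e-08 to 0.00939. No 50-base window of its transcript occurred in another annotated gene.

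*Dnajb1*, the stress-inducible J-domain partner on chromosome 8 (83608175 to 83612653, plus strand), was at 59.44, 64.31 and 68.67 normalised reads in Ctrl and 58.69, 56.67 and 58.55 in Upf1-cKO. The groups did not overlap, but the nearest libraries, Ctrl replicate 1 and Upf1-cKO replicate 1, were almost level. The log2 fold change was -0.14 ± 0.0889 (SE, adjusted p = 0.193, limma) and turned to 0.06 with libraries scaled to total reads. It was -0.19 (adjusted p = 0.0795) without Ctrl replicate 1, and it was called lower under median centring alone.

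*Hsp90ab1*, the constitutive HSP90 on chromosome 17 (45567778 to 45573261, minus strand), was at 2164, 2964 and 3159 normalised reads in Ctrl and 2177, 2260 and 2048 in Upf1-cKO. Ctrl replicate 1 fell inside the Upf1-cKO range, and the other controls were above it. The log2 fold change was -0.34 ± 0.125 (SE, 95% interval -0.619 to -0.0535, adjusted p = 0.0472, limma), and the call was lost in 8 of 20 alternatives. Under quantile normalization the change was -0.0147 (adjusted p = 0.904). Without Ctrl replicate 1 it was -0.50 (adjusted p = 9.27e-07) and the groups did not overlap. Without Ctrl replicate 2, Ctrl replicate 3, Upf1-cKO replicate 1 or Upf1-cKO replicate 3 it was -0.28, -0.23, -0.34 and -0.30, with adjusted p of 0.238, 0.0973, 0.0695 and 0.098.

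*Hsp90aa1*, the stress-inducible HSP90 on chromosome 12 (110691036 to 110696395, minus strand), was at 290.0, 389.9 and 490.0 normalised reads in Ctrl and 298.6, 321.7 and 272.3 in Upf1-cKO. As for *Hsp90ab1*, Ctrl replicate 1 lay inside the Upf1-cKO range. The log2 fold change was -0.36 ± 0.192 (SE, 95% interval -0.829 to 0.109, adjusted p = 0.167, limma), and without Ctrl replicate 1 it was -0.56 (adjusted p = 0.000124) and without Ctrl replicate 3 it was -0.18 (adjusted p = 0.192). It was called lower in 4 of 20 alternatives, the others being without robust estimation, by voom and by edgeR. Of its 50-base windows, 58.51% occurred in other annotated genes, none of which had a row.

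*Hspd1* and *Hspe1*, the HSP60 barrel and its HSP10 lid, are neighbours on chromosome 1 (55077833 to 55088243, minus strand, and 55088148 to 55091317, plus strand) that share the 4-unit run printed above. Their annotated ends overlap, and counting did not use strand. *Hspd1* was at 267.2, 439.0 and 401.6 normalised reads in Ctrl and 265.1, 271.9 and 254.3 in Upf1-cKO. *Hspe1* was at 60.39, 101.5 and 101.5 in Ctrl and 63.96, 59.19 and 57.96 in Upf1-cKO. In both genes Ctrl replicate 1 was level with Upf1-cKO, and Ctrl replicates 2 and 3 were above all 3 Upf1-cKO libraries. The log2 fold changes were -0.45 ± 0.179 for *Hspd1* (SE, adjusted p = 0.0734) and -0.49 ± 0.194 for *Hspe1* (SE, adjusted p = 0.0657, both by limma). Each was called lower in 7 of 20 alternatives: without robust estimation, under median centring, with the replicate block, by voom, edgeR and DESeq2, and without Ctrl replicate 1. Without Ctrl replicate 1 they were -0.67 (adjusted p = 1.67e-07) and -0.74 (adjusted p = 8.01e-07). Of their 50-base windows, 44.78% and 44.83% occurred in other annotated genes.

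*Hsf1*, the heat shock transcription factor on chromosome 15 (76477362 to 76501155, plus strand), was at 39.04, 39.25 and 35.5 normalised reads in Ctrl and 49.72, 49.63 and 55.77 in Upf1-cKO. The groups did not overlap, and Ctrl replicate 1 was level with Ctrl replicate 2. The means were 37.93 ± 2.108 and 51.71 ± 3.516 (SD, n = 3), a ratio of 1.36 and a change of 0.44 ± 0.0967 in log2 units (SE, 95% interval 0.233 to 0.639, adjusted p = 0.000933, limma). Over the 20 alternatives the log2 fold change ran from 0.328 to 0.636 with adjusted p from 3.3e-05 to 0.012, and without Ctrl replicate 1 it was 0.46 (adjusted p = 0.000995). In GENCODE, 3 of its 16 transcripts carry the NMD biotype, as does 1 of 8 of *Hsp90ab1* and none of the other 7 genes with a row. Across all genes with an annotation, 28.9% had such a transcript. Of these, 37.2% were called higher and 19.5% lower, against 25.8% and 28.1% of those without one. The table holds gene-level values and does not separate the transcripts of *Hsf1*.

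**Figure D3:**
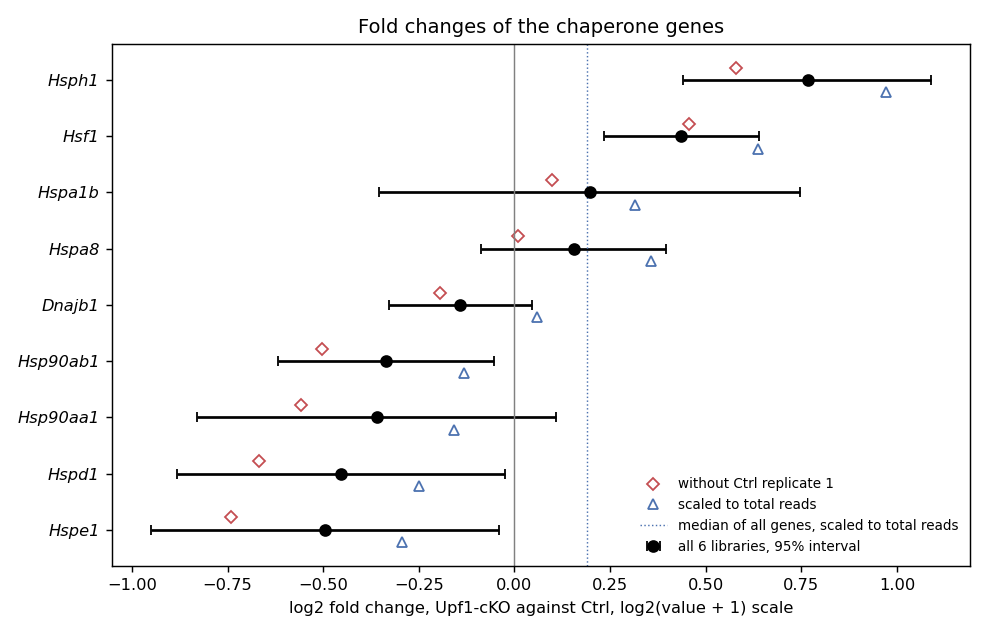
Log2 fold change of each chaperone gene, Upf1-cKO against Ctrl, with its 95% interval (black), the value without Ctrl replicate 1 (diamonds) and the value with libraries scaled to total reads (triangles), where the median of all genes is 0.19 (dotted). *Hsph1* and *Hsf1* lie above 0 under each, and the HSP90 and mitochondrial pairs lie below 0 under each.

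Ratios within a library do not depend on how that library was scaled, and they compare the proportions of related or partner genes between the groups. With 3 against 3 libraries the smallest p of the exact two-sided permutation test over all 20 assignments is 0.1, so no ratio could pass 0.05, and 5 ratios were compared. The log2 ratio of *Hsph1* to *Hspa8* was -2.50, -2.35 and -2.39 in Ctrl and -1.77, -1.76 and -1.86 in Upf1-cKO. It was higher by 0.62 in Upf1-cKO, with no overlap (exact p = 0.1), and by 0.57 without Ctrl replicate 1. Per kb of the same exon length as above, there were 8.6 to 9.58 normalised reads of *Hspa8* for each of *Hsph1* in Ctrl and 5.71 to 6.13 in Upf1-cKO.

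The ratio of *Dnajb1* to *Hspa8* was lower by 0.30 on the log2 scale (exact p = 0.1), with the nearest libraries of the groups both at -3.54 after rounding. For the remaining pairs the ratios of the groups overlapped. *Hsp90aa1* to *Hsp90ab1* differed by -0.02 (exact p = 0.9), with *Hsp90ab1* making up 89.4 to 90.9% of HSP90 normalised reads per kb in all 6 libraries. *Hspd1* to *Hspe1* differed by 0.05 (exact p = 0.6), with 2.21 to 2.56 normalised reads of *Hspd1* per kb for each of *Hspe1*. That proportion uses 2642 exon bases for *Hspd1* and 1474 for *Hspe1*. Their longest coding transcripts have 2423 and 774 bases, on which the proportion would be smaller. *Hspa1b* to *Hspa8* differed by 0.13 (exact p = 0.8), a value set by the few reads of *Hspa1b*. In Ctrl replicate 1 the HSP90 and mitochondrial pairs had log2 ratios of -2.90 and 2.15, against -2.93 and -2.69, and 2.11 and 1.98, in the other controls.

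**Figure D4:**
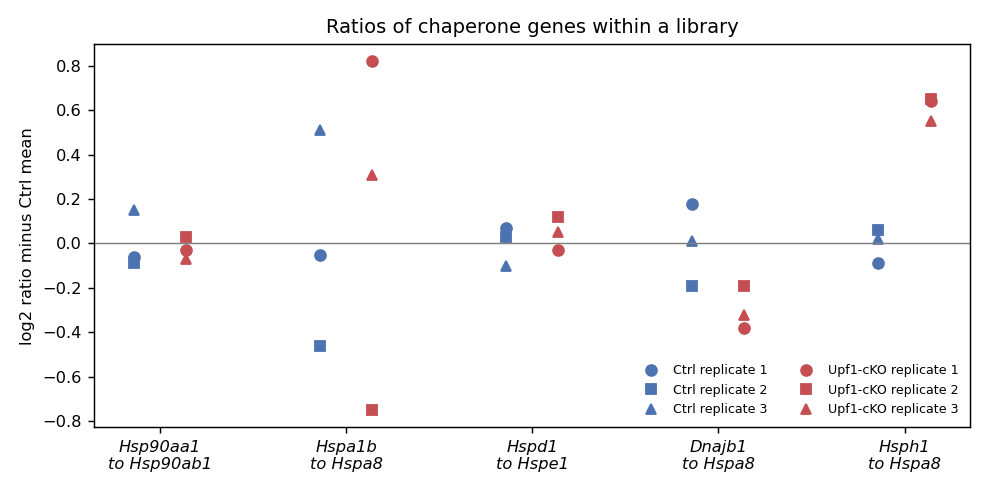
Log2 ratio of pairs of chaperone genes in each library, minus the Ctrl mean of that ratio. The ratio of *Hsph1* to *Hspa8* lies higher in each Upf1-cKO library, while the HSP90 and mitochondrial pairs overlap and the ratio with *Hspa1b* is spread widely.

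The other genes of the chaperone network were read from 9 lists of 117 genes, of which 109 had a row. Of these, 25 were called higher and 28 lower, with a median log2 fold change of -0.12 against 0.01 over all genes. With all 6 libraries both shares lay near the background of 27.7% and 25.0%. Ctrl replicate 1 was the lowest Ctrl library for 67 of the 109 genes. Without it, 22 were called higher and 38 lower, where 27.1% and 25.0% of all genes were. The share called lower was then above that of all genes, and the share called higher below it.

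Other HSP70 family members and exchange factors had 1 of 15 genes called higher and 7 lower (median -0.30), where 27.7% of all genes were higher and 25.0% lower. The count called lower was 4 without Ctrl replicate 2, 4 with total-read scaling and 10 under median centring, and without Ctrl replicate 1 it was 7, with 1 higher. Of all 13426 genes, 1936 were lower with total-read scaling and 4355 under median centring. *Hspa2*, an HSP70 best known from the testis, fell from 61.2 to 80.7 normalised reads in Ctrl to 19.6 to 20.1 in Upf1-cKO, a change of -1.76 ± 0.109 in log2 units (SE, adjusted p = 3.17e-10, limma). *Hspa14*, a ribosome-associated HSP70, fell by 0.71 in log2 units (adjusted p = 8.23e-06). *Hspa12a* fell by 0.77 (adjusted p = 0.0139), a call lost without Ctrl replicate 1, Ctrl replicate 2 or Upf1-cKO replicate 2, where 9 to 36 reads stood behind each library. The gene called higher was *Hspa4l*, and its relative *Hspa4* was called lower; both belong to the HSP110 class of *Hsph1* and were chosen after their values were seen. *Hspa4l* was at 44.56, 49.15 and 51.09 normalised reads in Ctrl and 69.82, 55.95 and 70.26 in Upf1-cKO, and *Hspa4* was at 487.4, 627.2 and 575.7 in Ctrl and 411.8, 432.1 and 400.5 in Upf1-cKO. Their changes in log2 units were 0.42 for *Hspa4l* (adjusted p = 0.00195, limma) and -0.43 for *Hspa4* (adjusted p = 0.000273, limma), and both kept their direction and call in all 20 alternatives, so the HSP110 genes did not move together.

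Among 17 other cytosolic J-domain genes, 5 were called higher and 3 lower (median 0.05), against 27.7% and 25.0% of all genes. The count called lower was 1 with total-read scaling or without Upf1-cKO replicate 1, and 5 under median centring, quantile normalization or without Ctrl replicate 1, where 5 were higher. With total-read scaling 1936 of all 13426 genes were lower. *Dnajb2*, a J-domain protein that sorts clients to the proteasome, rose from 5.58 to 7.22 normalised reads in Ctrl to 19.8 to 21.1, a change of 1.57 ± 0.149 in log2 units (SE, adjusted p = 7.3e-08, limma). *Dnaja4* rose by 0.75 from a low level (adjusted p = 0.00734). *Dnajc9*, a histone co-chaperone of dividing cells, fell by 0.85 in log2 units (adjusted p = 1.82e-08). *Dnajb2* and *Dnajc9* kept these calls in every alternative, and *Dnaja4* in every alternative whose filter kept it.

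HSP90 co-chaperones were split, with 7 of 21 called higher and 5 lower (median -0.09), the latter count running from 1 with total-read scaling to 10 under median centring, and without Ctrl replicate 1 there were 6 in each direction. *Rpap3*, a subunit of the R2TP complex that assembles RNA polymerase and snoRNPs with HSP90, rose by 0.76 on the log2 scale (82.1 to 86.5 normalised reads against 43.0 to 54.5 in Ctrl, adjusted p = 2.74e-06, limma). *Unc45a*, which guides myosin folding, rose by 0.75 (adjusted p = 1.5e-06), and *Tomm34*, which links HSP70 and HSP90 in mitochondrial import, by 0.73 (adjusted p = 4.09e-06). The share of calls was close to that of all genes in each direction.

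The TRiC chaperonin, which folds actin and tubulin, and its loader prefoldin had 8 of 14 subunits called lower and 0 higher by limma (0 higher also at an unadjusted p under 0.05, by edgeR and by DESeq2), with a median of -0.26, where 25.0% of all genes were lower and 27.7% higher. All 14 fold changes lay below 0, except that 4 turned above 0 with libraries scaled to total reads. *Vbp1*, a prefoldin subunit, fell by 0.79 (adjusted p = 6.71e-07), *Cct8* by 0.48 (adjusted p = 0.000175) and *Tcp1* by 0.40 in log2 units (adjusted p = 0.000235). Subunits of 1 complex are not independent, and the count called lower ran from 2 with libraries scaled to total reads to 12 without Ctrl replicate 1. Under total-read scaling the median of all genes was itself 0.19, with 1936 of all 13426 genes called lower and 5169 higher, and the call of *Tcp1* was lost.

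Of 9 small heat shock proteins, 4 had a row, and *Hspb1* and *Cryab* had none. *Hspb8*, which works with BAG3 in selective autophagy, had 2, 3 and 1 reads in Ctrl and 21, 26 and 28 in Upf1-cKO, a ratio of reads per total of 12.8 (95% counting interval 5.59 to 35.8, adjusted p = 1.89e-05 by limma). *Hspb9* was called higher (adjusted p = 0.0478) with overlapping groups, and lost the call in 14 alternatives. Both were called higher without Ctrl replicate 1. Of the other heat shock factors and the HSF-binding protein, *Hsf2*, *Hsf5* and *Hsbp1* had a row, and 0 of 3 were called in either direction by limma (0 at an unadjusted p under 0.05, and 0 by edgeR and DESeq2). Under other limma settings 1 was called lower (median centring, quantile normalization, and without Upf1-cKO replicate 3) or 1 higher (both total-read scalings, and without Ctrl replicate 2), and 0 without Ctrl replicate 1. *Hsbp1* was at 42.12, 55.21 and 50.49 normalised reads in Ctrl and 58.99, 57.39 and 54.25 in Upf1-cKO. *Hsf2*, chosen like *Hsbp1* after its values were seen, was at 17.47, 17.73 and 16.24 normalised reads in Ctrl and 12.34, 12.94 and 16.57 in Upf1-cKO.

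Among 17 other genes reported as HSF1 targets, 4 were called higher and 5 lower (median -0.09), against 27.7% and 25.0% of all genes. Leaving out Ctrl replicate 1, 3 were higher and 8 lower, where 27.1% and 25.0% of all genes were. With total-read scaling 5 were higher and 2 lower, when 5169 of all 13426 genes were higher and 1936 lower. *Serpinh1*, the collagen chaperone HSP47 of the ER, had 0, 2 and 1 reads in the Ctrl libraries and 50, 66 and 45 in the Upf1-cKO libraries. Its ratio of reads per total was 54.7 (95% counting interval 18.4 to 268, adjusted p = 5.09e-08 by limma). *Ptges3*, the HSP90 co-chaperone p23, fell by 0.52 in log2 units (adjusted p = 0.00029). *Serpinh1* is mostly known from cells that make collagen, and *Ptges3* from all cells. The counts of the list with all libraries lay near the shares of all genes.

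In mitochondria, 5 of 20 other chaperone, import motor and protease genes were called higher and 5 lower (median 0.06), against 27.7% and 25.0% of all genes. With total-read scaling 12 were higher and 1 lower, when 5169 of all 13426 genes were higher and 1936 lower, and 3 were higher under median centring or without Upf1-cKO replicate 2 or 3. Leaving out Ctrl replicate 1 gave 4 higher and 6 lower. *Hscb*, the J-domain protein of iron-sulfur cluster assembly, rose by 0.81 in log2 units (adjusted p = 9.77e-05, limma), and *Clpb*, a disaggregase, by 0.68 (adjusted p = 3.97e-05). *Dnajc30* fell by 0.61 (adjusted p = 0.00895), a call lost with libraries scaled to total reads. Of the mitochondrial relatives of the chaperones above, the HSP70 gene *Hspa9* was at 401.9, 550.0 and 524.3 normalised reads in Ctrl and 543.5, 536.1 and 499.1 in Upf1-cKO, and the HSP90 gene *Trap1* at 150.2, 193.6 and 181.4 in Ctrl and 133.7, 132.4 and 136.2 in Upf1-cKO; these were chosen after their values were seen. *Trap1* was called lower (adjusted p = 0.00165, limma), a call lost with libraries scaled to total reads (adjusted p = 0.135), and *Hspa9* was not called, but was called higher with total-read scaling (0.31 in log2 units, adjusted p = 0.0149) and under quantile normalization (0.32, adjusted p = 0.00431).

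The ER counterparts, which answer to the unfolded protein response rather than to HSF1, had 4 of 11 called higher and 0 lower by limma (0 lower at an unadjusted p under 0.05, by edgeR and by DESeq2, and 1 lower without Ctrl replicate 1), with a median of 0.17 and 8 of 11 fold changes above 0. The count called higher was 2 under median centring and 7 under quantile normalization and both total-read scalings. Of all 13426 genes, 27.7% were called higher, and with total-read scaling 5169 were. *Sil1*, the exchange factor of BiP, rose by 0.47 in log2 units (adjusted p = 0.00211), *Hspa13* by 0.43 (adjusted p = 0.00231) and *Dnajc3* by 0.29 (adjusted p = 0.00406), the last of which lost its call under median centring. BiP itself (*Hspa5*), chosen after its values were seen, was at 450.6, 530.8 and 516.2 normalised reads in Ctrl and 565.1, 527.7 and 561.9 in Upf1-cKO, and its groups overlapped (adjusted p = 0.112, limma). It was called higher under quantile normalization (adjusted p = 0.00044), with total-read scaling (adjusted p = 0.00161, and 0.00994 without the most abundant row) and without Ctrl replicate 2 (adjusted p = 0.0436).

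**Figure D5:**
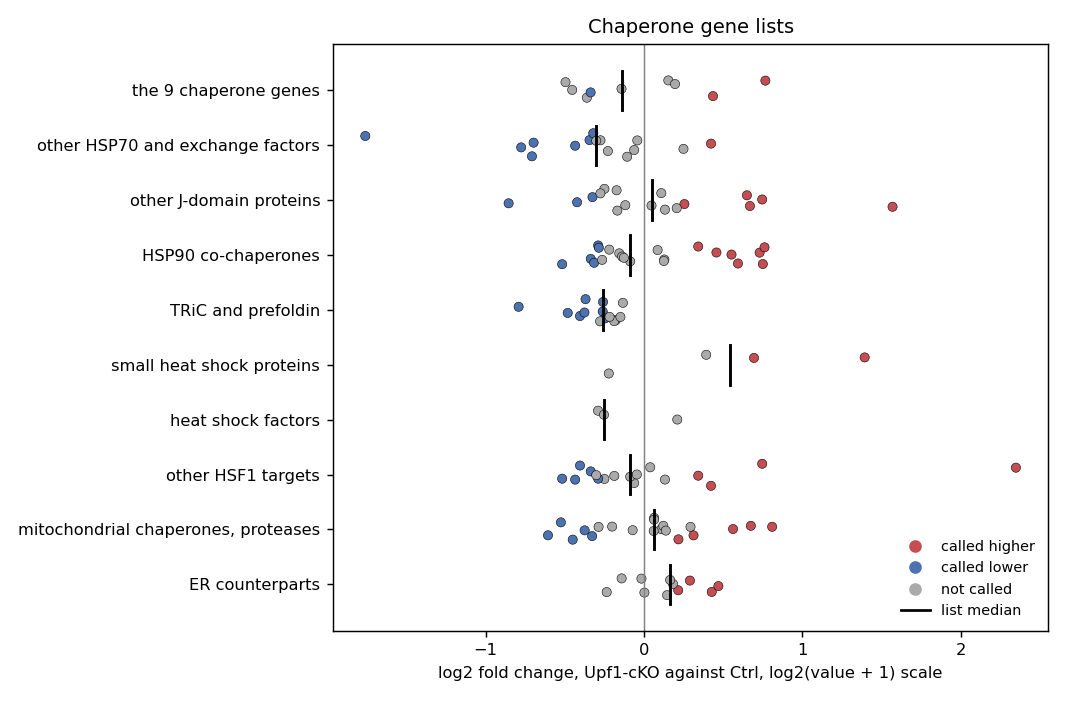
Log2 fold change of every gene with a row in the 10 heat shock chaperones and in each of 9 chaperone lists, coloured by call, with the median of each list as a line. Every TRiC and prefoldin gene lies below 0 in this scaling (10 of 14 with libraries scaled to total reads), the HSP90 co-chaperones spread to both sides, and *Serpinh1* is the point farthest to the right.

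Markers of other cells and of handling were read beside these results. Their counts stand against 27.7% of all genes called higher and 25.0% called lower. Immediate early genes, which rise when cells are handled, had 6 of 14 called higher and 3 lower, the latter count being 2 without Ctrl replicate 1, 5 without Ctrl replicate 2 and 6 without Ctrl replicate 3. Their summed level was 465 in Ctrl replicate 1, 345 and 352 in the other controls, and 355 to 378 in Upf1-cKO, so Ctrl replicate 1 was the highest library there and the lowest Ctrl library for most chaperones. *Klf4* fell by 1.82, *Socs3* rose by 1.48 and *Nr4a1* rose by 1.002 in log2 units (adjusted p of 3.38e-08, 2.98e-05 and 0.000409, limma). Of the neutrophil markers, 5 of 10 were called higher, among them *Ltf*, *S100a9* and *S100a8*, and the count was 8 without Ctrl replicate 1 and 2 or 3 without any other single library. Monocyte markers with a row (4 of 8) had 1 called higher (*Lyz2*) and 1 lower (*Itgam*), of which *Lyz2* was lost without Ctrl replicate 1 or Upf1-cKO replicate 3 and *Itgam* in 7 alternatives, with sums of 56.8 to 89.6 and 76.4 to 104. Erythroid markers (4 of 8, no globin gene among them) summed to 7.88 to 12.0 and 8.94 to 10.1, with 0 called by limma, edgeR or DESeq2 and 0 at an unadjusted p under 0.05, but 1 called lower by limma without the intensity trend, under median centring and under quantile normalization. T and NK cell markers had 2 of 9 with a row, none of them a CD3 gene, with sums of 1.17 to 1.59 and 3.79 to 5.27 and *Klrb1c* called higher. Plasma cell markers (4 of 5) summed to 72.1 to 88.5 and 52.7 to 66.0, with *Jchain* and *Sdc1* called lower. Of the B lineage genes, 3 were called higher and 3 lower, with *Rag1* up by 1.55 and *Cd2* down to 4 to 10 reads from 18 to 38. The part of handling and of other cells in the chaperone values was not tested.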

How the data were processed

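RNA was sequenced from sorted early LPre-B cells of 3 Ctrl and 3 Upf1-cKO mice, and groups and replicate numbers came from the sample titles. Per the submitters' processing notes and the study's methods, reads were trimmed with cutadapt 4.0, aligned with HISAT2 to GRCm38 without strand, counted with featureCounts 2.0.1 and tested with limma 3.48.0. The authors deposited a linear normalised signal per gene by Entrez ID, with no fold changes or p-values. In each library the values were the smallest one times odd whole numbers, so each is a count plus 0.5 reads divided by a library factor. Undoing this gave whole reads for 100% of the values (within 0.02 of the smallest value, and in proportion for large values), and totals of 9732498 to 11006834 were rebuilt from them. Of 13426 IDs, RefSeq named 13008 and GENCODE M21 named 3, and 415 stayed unnamed.

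The test was limma 3.58.1 (R 4.3.3; eBayes with trend and robust) on log2(value + 1), two-sided, with Benjamini-Hochberg adjustment over all 13426 genes and no further filter. Fold changes of low genes are understated on this scale. The fit was also run on simulated counts in which few genes changed, a setting that does not test the choice of scaling. Alternatives were the pseudocount (0.1 or none), a minimum mean log2 value (1 or 3), eBayes without trend or robust, median, quantile and total-read scaling, a replicate block, voom, edgeR 4.0.16 (3651 genes called higher and 3343 lower) and DESeq2 1.42.0 (3312 and 3281) on recovered reads, and leaving out each library. The 10 genes and the lists were chosen with earlier results of these data known. Named genes were the 10, *Upf1*, and at most 3 genes per list by the largest absolute fold change among those called, or, for the cell type and immediate early lists, the most abundant where none was called (*Alas2*, 4.29 to 9.61 in Ctrl and 6.62 to 7.89 in Upf1-cKO). *Hspa4*, *Hspa4l*, *Hspa9*, *Trap1*, *Hspa5*, *Hsf2* and *Hsbp1* fall outside this rule and were chosen after their values were seen. *Hspa1a* had no row, so the planned ratio of *Hspa1a* plus *Hspa1b* to *Hspa8* used *Hspa1b* alone. Intervals of read ratios (exact binomial, 95%) cover counting error only. Sequences and shared 50-base windows came from RefSeq and GENCODE on GRCm38.p6. Protein sequences were not used here.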

Additional observations from a re-analysis of the deposited data

How the results depend on the processing

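*Hsph1* and *Hsf1* kept their direction and their call in all 20 alternatives. The call of *Hsp90ab1* and the calls gained by other chaperone genes depended on scaling, on how the spread was estimated and on single libraries. Of the 9 chaperone genes, 1 was called lower; the count was 4 without robust estimation, 4 under median centring, 4 by voom, 4 by edgeR and 3 by DESeq2, and it was 0 by limma without the intensity trend (2 at an unadjusted p under 0.05), 0 under quantile normalization (1 unadjusted), 0 with libraries scaled to total reads and 0 when the most abundant row was left out of that total, a scaling chosen after seeing the data (0 unadjusted in both). Leaving out 1 library gave 0 to 4, with 4 only without Ctrl replicate 1. Among the 109 pathway genes, 28 were called lower, against 17 without the trend, 45 under median centring, 9 with total-read scaling, 18 without the most abundant row and 18 to 38 with 1 library left out; 25 were called higher, against 42 with total-read scaling. Scaling also moved the whole table: 3725 genes were higher and 3351 lower (52.6% of calls higher, median 0.01), against 2992 and 4355 under median centring (40.7%, median -0.10), 5169 and 1936 with total-read scaling (72.8%, median 0.19) and 4388 and 2661 without the most abundant row (62.2%, median 0.10). Relative to the median of all genes, *Hspa8* stood at 0.14, 0.14, 0.17 and 0.15, *Hsph1* at 0.76, 0.76, 0.78 and 0.77, and *Hspe1* at -0.51, -0.51, -0.48 and -0.50 in those same settings, which by construction shift all genes nearly alike. Quantile normalization did not: relative to the median, *Hspa8* stood at 0.40, *Hsp90ab1* at 0.03 and *Hsp90aa1* at -0.14, against 0.14, -0.35 and -0.37. The cause was not tested.

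The labels do not say that a replicate number marks a shared mouse litter, day or batch, although the same-numbered libraries of the groups carry adjacent serial numbers in the labels. The correlations of their deviations from the group means were 0.089, -0.029 and -0.032, and not every library correlated best with its own number, so they were treated as unpaired. With the replicate number as a block, 3 chaperone genes were called lower and 2 higher, and 3668 genes of the table were higher and 3321 lower. The ratio of *Hsp90aa1* to *Hsp90ab1* ran from -0.07 to 0.05 with 1 library left out (0.05 without Ctrl replicate 3), and that of *Hspa1b* to *Hspa8* from -0.22 to 0.57 (-0.10 without Ctrl replicate 2 and -0.22 without Upf1-cKO replicate 1). Depth limits *Hspa1b* among the 9 genes, with 8 to 27 reads per library, and its log2 fold change ran from -0.045 to 0.485.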
